A study of Mus musculus with 3 samples.

Results

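This report describes the mRNA levels of 80 transporter genes for sugars, amino acids, monocarboxylates and related substrates in 3 mouse cell populations: embryonic stem (ES) cells, and B cells and CD4 T cells of the spleen. The members were all genes of the solute carrier families Slc1a, Slc2a, Slc3a, Slc6a, Slc7a, Slc16a, Slc38a and Slc43a with a probe set annotated to a single symbol. They are 80 of 18193 genes on the array, and each was represented by 1 probe set, the one whose signal averaged highest over the 3 arrays. The genes were chosen by symbol and the probe set by its mean signal. One array was made per population, from C57BL/6 material. The ES cells, of the B6N-22 line, had been cultured on feeder fibroblasts arrested with mitomycin C, in DMEM with 1000 units/ml of leukemia inhibitory factor, 20% fetal bovine serum, 2-mercaptoethanol, nonessential amino acids and sodium pyruvate. The B220 B cells and CD4 T cells were isolated from spleens of mice aged 6 to 8 weeks with magnetic beads, to a stated purity above 98%, and their RNA was taken directly after harvest. The ES cells thus came from culture medium and the lymphocytes from the animal, a difference that cannot be told apart from cell type. Whether mice were pooled for the lymphocytes, and whether feeders were removed from the ES cells, was not given in the sources used here.

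Cells take up glucose, amino acids and lactate through membrane carriers that are specific for groups of substrates. The Slc2 (GLUT) carriers move hexoses down their gradient. Slc16 (MCT) carriers move lactate and pyruvate together with protons, or other small acids. Amino acids enter by sodium-coupled carriers of the Slc1, Slc6 and Slc38 families and by exchangers of the Slc7 family, several of which need a heavy chain of the Slc3 family to reach the plasma membrane. Resting lymphocytes are known for low nutrient uptake and increase it on activation, whereas ES cells divide rapidly and are known for high glycolytic flux.

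With 1 array a population the spread between replicates is unknown, so nothing was tested and p-values are not given. The unit throughout is the deposited probe set signal on a linear scale. A signal was taken as detected above 95.0, the median of all values, and lower values were raised to 95.0 before a fold or log2 difference was computed, so that a fold against an undetected signal is a lower bound, written as "at least". Genes were counted that differed by 4-fold or more, provided that the array with the higher signal exceeded 95.0. As the only available measure of error, the log2 differences from a gene's brightest and second brightest probe sets were compared. They disagreed with an SD of 0.88 for T cells against ES cells (3927 genes), 0.85 for B cells against ES cells (3887 genes) and 0.49 for T cells against B cells (4555 genes). This covers probe effects and not the spread between cultures or animals.

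All 6 listed ES cell markers were detected in the ES cell array and none of the 6 in either lymphocyte array. All 4 B cell markers with a probe set were detected in B cells and all 5 T cell markers in T cells, with a Cd4 signal of 834.2 against 19.7 in B cells. In T cells 3 of the 4 B cell markers were detected too, and in B cells 3 of the 5 T cell markers. The summed signal of 5 neutrophil markers was 200.5 in ES (1 of 5 detected), 6664 in B (3 of 5) and 13666 in T cells (4 of 5). Most of the lymphocyte sums came from S100a8, at 3966 in B and 8945 in T cells, and S100a9, at 2444 and 4451. Mpo was undetected on all arrays, and Elane was nearly level at 100.2, 101.4 and 104.2 in ES, B and T cells. The summed signal of 12 fibroblast markers was 94603 in the ES cell array, with 12 of 12 detected, against 7886 in B cells (4 of 12) and 16484 in T cells (3 of 12). Col1a1, Col1a2, Col3a1, Tagln, Dcn, Lum, Postn and Thbs1 were below detection in both lymphocyte arrays. Most of the lymphocyte sums came from Vim, at 7138 in B and 8743 in T cells, and in T cells also from Thy1, at 7185. In B cells Thy1 was at 105.6. The summed signal of 13 macrophage markers was 5902 in ES cells, with 10 of 13 detected, 31657 in B cells and 76489 in T cells, with 13 of 13 detected in both. In bulk RNA, a change in the number of cells of a type and a change of RNA per cell cannot be told apart.

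Of the 80 transporters, 39 were detected in ES, 39 in B and 36 in T cells, which is 48.8%, 48.8% and 45.0%, against 60.3%, 57.8% and 56.8% of all genes. In all, 53 were detected on at least 1 array and 27 on none, while 12776 of all 18193 genes were detected on at least 1. In T cells against ES cells, 9 of 48 measured transporters (18.8%) were at least 4-fold lower, where 10.2% of all 12325 measured genes were, and 4 (8.33%) were at least 4-fold higher, where 10.8% of all genes were. In B cells against ES cells, 9 of 49 (18.4%) were lower, against 10.3% of all 12463 measured genes, and 2 (4.08%) were higher, against 9.85%. These comparisons share the single ES cell array. Both had the same 9 genes on the lower side, so 9 of 53 (17.0%) were at least 4-fold above both lymphocyte arrays in ES cells, against 8.27% of all genes. Another 2 of 53 (3.77%), Slc38a9 and Slc43a2, were at least 4-fold below both, against 7.11% of all genes. The median log2 difference of the measured transporters was -0.34 for T cells and -0.18 for B cells, each minus ES cells, beside -0.11 and -0.07 for all measured genes. Over the transporters detected on both arrays, where no value was floored, it was -0.36 (27 genes) and -0.27 (29 genes), beside -0.06 and -0.03 for all genes. Scaling to a common 75th percentile shifted the background to 13.4% lower and 8.49% higher for T cells and to 13.4% lower and 8.0% higher for B cells, while 9 transporters were lower in each.

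Somewhat more transporters lay within 2-fold of ES cells than outside. Of the measured members, 27 of 48 (56.2%) lay within 2-fold between T cells and ES cells, and 28 of 49 (57.1%) between B cells and ES cells, where 52.6% and 54.3% of all genes did. Closest to the 4-fold limit was Slc6a15 on the inside, at -2.14 on the log2 scale in both comparisons. Just outside lay Slc16a9 at 1.93 for T cells and Slc1a5 at 1.91 for B cells, each minus ES cells.

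**Figure D1:**
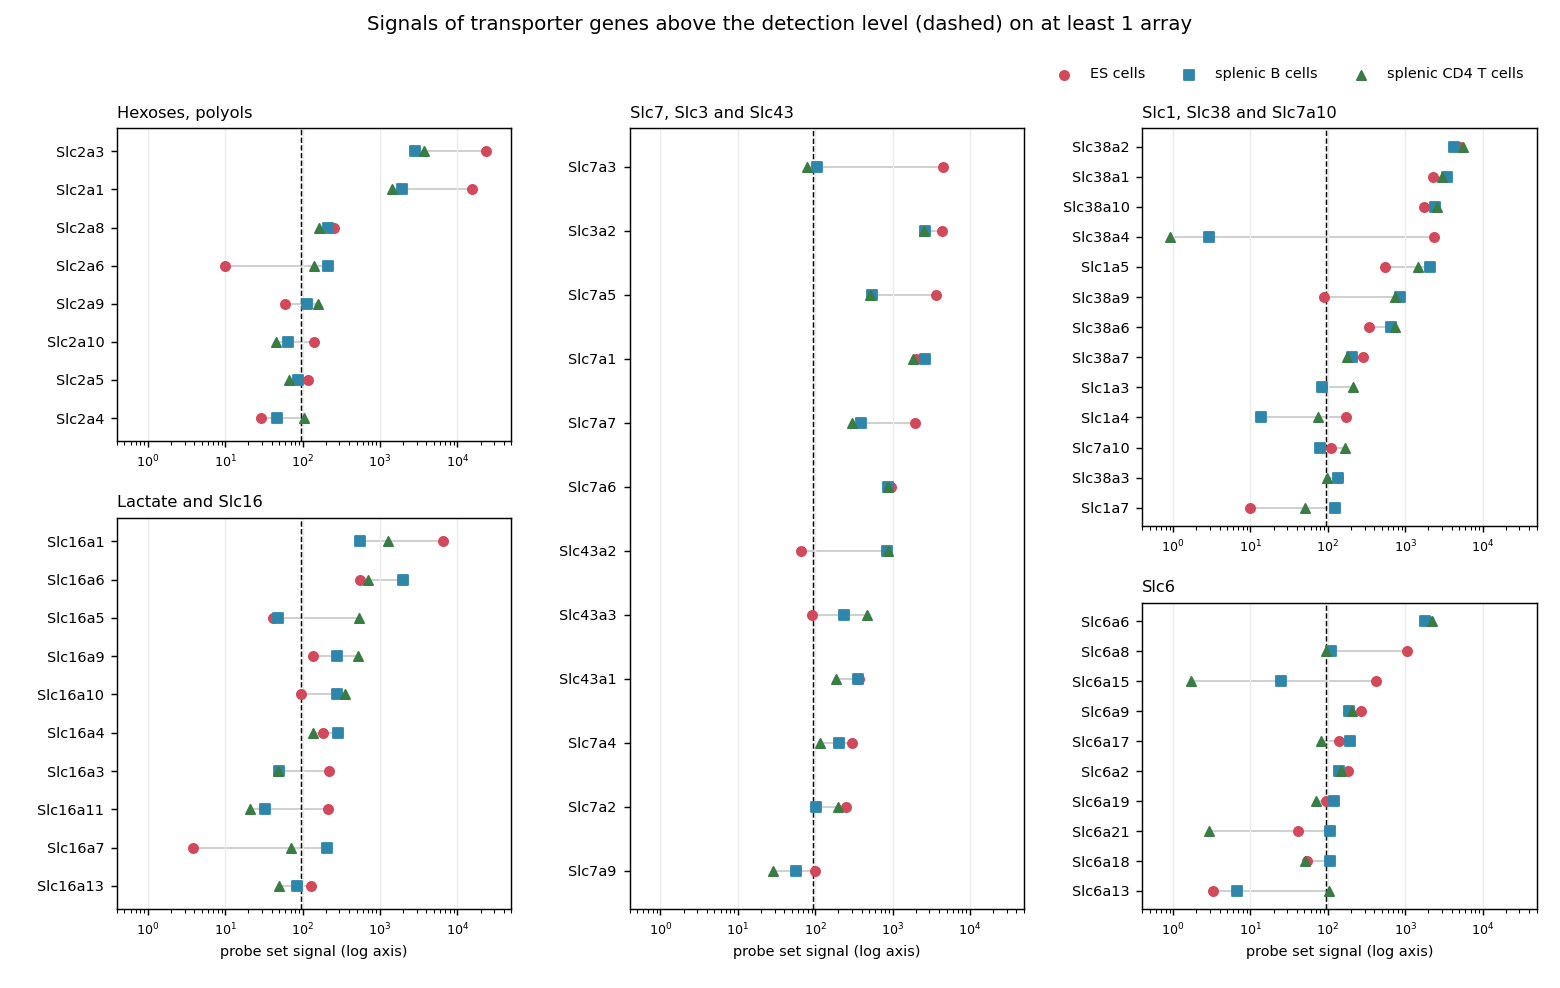
Probe set signal (log axis) of the 53 transporters detected on at least 1 array, one row a gene and one point an array, ordered within each panel by the highest signal. ES cells stand far to the right for Slc2a3, Slc2a1, Slc16a1, Slc7a3, Slc7a5, Slc38a4 and Slc6a8, and to the left for Slc43a2 and Slc38a9, with the detection level of 95.0 as the dashed line.

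Among the sugar carriers, the ES cell array stood above both lymphocyte arrays for Slc2a1 and Slc2a3. Of 11 Slc2 genes 8 were detected on at least 1 array, 2 were at least 4-fold lower in both lymphocyte arrays and none was at least 4-fold higher. Of all measured genes 10.2% were lower and 10.8% higher in T cells, and 10.3% lower and 9.85% higher in B cells. With so few Slc2 genes, a count of 0 higher lies close to those shares. Slc2a1 encodes GLUT1, the widely expressed basal glucose transporter, and its signal was 15556 in ES, 1915 in B and 1454 in T cells. That is 8.12-fold lower in B cells and 10.7-fold lower in T cells. Its other 2 probe sets gave log2 differences of -3.84 and -3.83 for T cells and of -3.39 and -2.91 for B cells, so all 3 probe sets of this gene placed ES cells highest by more than 4-fold.

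Slc2a3 encodes GLUT3, a glucose transporter of high affinity known from neurons. Its signal was 23401 in ES, 2835 in B and 3681 in T cells, 8.26-fold lower in B cells and 6.36-fold lower in T cells. Both lymphocyte signals remained well above the detection level. The 4 probe sets of Slc2a3 spread widely: the second gave -3.58 for T cells and -3.91 for B cells, the third -2.59 as a bound in both, and the fourth, with a signal of 171.0 in ES cells, -0.85 as a bound in both. By their suffixes, the 2 brightest are probe sets whose probes can match further transcripts.

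None of the other sugar carriers reached 4-fold. Slc2a6, which encodes GLUT6, a carrier of intracellular membranes, had signals of 9.9 in ES, 214.6 in B and 142.6 in T cells. It was thus detected in both lymphocyte arrays and not in ES cells, with log2 differences of at least 1.18 for B cells and 0.59 for T cells, minus ES cells. Slc2a8, another intracellular hexose carrier, was detected on all 3 arrays, with signals of 253.5, 210.7 and 161.0 in ES, B and T cells. Slc2a2, the GLUT of liver and pancreatic beta cells, was undetected on all arrays, with a highest signal of 14.0, as were Slc2a12 and Slc2a13. Slc2a4, the insulin-regulated GLUT4 of muscle and fat, reached 104.8 in T cells and was undetected in ES cells (28.8) and B cells (46.1).

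The 250 bases upstream of the annotated start of Slc2a1 are shown because this gene and Slc16a1, described next, are energy substrate carriers with the same direction of difference. The sequence is from RefSeq (GRCm38.p6, chr4:119108495-119108744, plus strand), and capitals mark ACGTG, the core letters recognised by hypoxia-inducible factors. ACGTG, read on both strands, occurred in 16.6% of all 32851 windows of this kind and in 20 of 79 (25.3%) windows of 58 transporters, as a description of letters and not of binding. In Slc2a1 it begins at position -36, counted back from the start. Here and for the motifs below, transporter windows on a single chromosome were left out, a filter not applied to all windows.
Slc2a1: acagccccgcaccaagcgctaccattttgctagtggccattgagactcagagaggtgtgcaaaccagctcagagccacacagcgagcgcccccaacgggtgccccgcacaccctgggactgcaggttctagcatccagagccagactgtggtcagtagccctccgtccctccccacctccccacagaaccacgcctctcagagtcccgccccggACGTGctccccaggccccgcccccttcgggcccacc

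Among the monocarboxylate carriers, Slc16a1 was the one with a large difference between ES cells and both lymphocyte populations. Slc16a1 encodes MCT1, a proton-coupled carrier of lactate and pyruvate, and its signal was 6527 in ES, 558.5 in B and 1272 in T cells. It was 11.7-fold lower in B cells and 5.13-fold lower in T cells, and the T cell signal was 2.28-fold above that of B cells. Its other probe set was undetected on all arrays, at most 67.6, and gives no second reading. Slc16a3, the lactate exporter MCT4 of glycolytic tissues, had a signal of 216.7 in ES cells against 49.6 in B cells and 47.8 in T cells, at least 2.28-fold lower in each lymphocyte array. Slc16a7, which encodes MCT2, a carrier with high affinity for pyruvate, went the other way, with signals of 3.8 in ES, 207.0 in B and 71.8 in T cells, and was therefore detected in B cells alone. Slc16a8, the MCT3 of retinal epithelium, was undetected on all arrays.

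The upstream window of Slc16a1 (RefSeq, GRCm38.p6, chr3:104638414-104638663, plus strand) holds CACGTG, the E-box letters recognised by MYC with MAX and by related factors, which overlap ACGTG on both strands. CACGTG occurred in 6.02% of all windows and in 10 of 79 (12.7%) windows of the transporters. It is in capitals and begins at position -200.
Slc16a1: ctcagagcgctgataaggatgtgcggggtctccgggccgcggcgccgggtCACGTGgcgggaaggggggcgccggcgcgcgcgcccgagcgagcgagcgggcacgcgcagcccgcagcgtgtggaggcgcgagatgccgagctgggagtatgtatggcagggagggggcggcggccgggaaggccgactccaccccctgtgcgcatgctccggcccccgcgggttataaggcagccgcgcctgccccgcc

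The remaining Slc16 genes are mostly carriers of other substrates or of substrates not settled, and they differed in both directions. The 7 that were put in no substrate class of their own had a median log2 difference of -0.01 for T cells minus ES cells (6 measured). For B cells minus ES cells it was 0.66 (5 measured). Slc16a5 stood out in T cells, with a signal of 530.4 against 42.1 in ES cells and 48.7 in B cells, at least 5.58-fold higher than in either. Its second probe set, at most 40.1, was undetected on all arrays. Slc16a6, the MCT7 gene, linked to ketone body export in liver, was highest in B cells, with 2011 against 549.4 in ES cells and 708.6 in T cells, which is 3.66-fold above ES cells and 2.84-fold above T cells. Slc16a9 had signals of 136.0 in ES, 281.2 in B and 518.2 in T cells, 3.81-fold higher in T cells than in ES cells. Slc16a10, a carrier of aromatic amino acids, had signals of 96.4, 281.1 and 358.6 in the same order. That was 2.92-fold higher in B cells and 3.72-fold higher in T cells, with the ES cell signal barely above 95.0. With the level of 244.5 the log2 differences of Slc16a10 fell to 0.20 and 0.55. Its second probe set gave at least 0.41 for B cells and 0.89 for T cells on the log2 scale. The remaining 2 of its 4 probe sets were undetected on all arrays. Slc16a11 went with ES cells, at 214.9 against 33.0 and 20.9, at least 2.26-fold. Slc16a13 was detected in ES cells alone, at 128.0 against 85.3 in B and 49.6 in T cells. Slc16a4 had signals of 182.1 in ES, 286.9 in B and 138.4 in T cells.

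Large neutral amino acids such as leucine are moved by different carriers, and these differed in opposite directions. Slc7a5 encodes LAT1, an exchanger that works as a pair with the heavy chain Slc3a2 and supplies leucine to growing cells. Its signal was 3598 in ES, 545.8 in B and 514.1 in T cells, with log2 differences from ES cells of -2.72 in B and -2.81 in T cells. The lymphocyte signals were nearly equal, and this gene has a single probe set. Slc43a2 encodes LAT4, a carrier that needs no heavy chain, and its signal was 65.8 in ES, 859.6 in B and 873.4 in T cells. ES cells were below detection, so the excess was a bound, of at least 9.05-fold for B cells and 9.19-fold for T cells. Another probe set of Slc43a2 gave 1.09 for B cells and 0.81 for T cells on the log2 scale, with 111.7 in ES cells, and the remaining one was undetected. Slc43a1, the related LAT3 gene, had signals of 365.9, 357.4 and 187.6 in ES, B and T cells, within 2-fold throughout. Slc7a8, which encodes LAT2, was undetected on all arrays, with a highest signal of 92.9, just below the detection level.

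The heavy chain itself differed less than its LAT1 partner. Slc3a2 encodes CD98, which carries several Slc7 light chains to the surface, and its signals were 4422 in ES, 2651 in B and 2564 in T cells. It was 1.67-fold and 1.72-fold lower in B and T cells, which is within the disagreement between probe sets. With all arrays scaled to a common 75th percentile the log2 differences were -1.09 and -1.16. Slc3a1, the heavy chain of kidney and gut, was undetected on all arrays.

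Cationic amino acids, arginine and lysine, are carried by the CAT proteins, and 1 of their genes separated ES cells widely from both lymphocyte arrays. Slc7a3 encodes CAT3, and its signal was 4551 in ES, 106.3 in B and 78.8 in T cells. By its single probe set, ES cells were 42.8-fold above B cells and at least 47.9-fold above T cells. Slc7a1, the widely expressed CAT1, had signals of 2005, 2605 and 1839 in ES, B and T cells, which differ by at most 1.42-fold. Its next probe set likewise lay within 2-fold, at 0.37 for T cells and 0.39 for B cells minus ES cells. Slc7a2, inducible in macrophages, had signals of 252.0, 102.7 and 195.9, and Slc7a4 had 296.9, 205.8 and 114.2.

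Exchangers that take out cationic and take in neutral amino acids also contained a gene higher in ES cells and one within 2-fold. Slc7a7 encodes y+LAT1, and its signal was 1971 in ES, 397.2 in B and 300.9 in T cells, 4.96-fold and 6.55-fold lower in lymphocytes. Its second probe set gave 1033, 319.2 and 291.0, or -1.69 for B cells and -1.83 for T cells on the log2 scale, just short of 4-fold. Slc7a6, which encodes the paralog y+LAT2, had signals of 953.0, 863.0 and 874.6, with at most a 1.10-fold difference. The cystine and glutamate exchanger Slc7a11 (xCT) was undetected on all arrays by both of its probe sets, with signals of 39.1, 50.4 and 53.8 by the brighter.

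One of 5 annotated starts of Slc7a7 is shown because 2 of them hold TGATGNAA upstream, letters of the amino acid response element bound by ATF4 with C/EBP partners. The window (RefSeq, GRCm38.p6, chr14:54417945-54418194, minus strand, written in the direction of transcription) has it in capitals at position -141. On both strands these letters were found in 3.45% of all windows and in 4 of 79 (5.06%) windows of the transporters.
Slc7a7: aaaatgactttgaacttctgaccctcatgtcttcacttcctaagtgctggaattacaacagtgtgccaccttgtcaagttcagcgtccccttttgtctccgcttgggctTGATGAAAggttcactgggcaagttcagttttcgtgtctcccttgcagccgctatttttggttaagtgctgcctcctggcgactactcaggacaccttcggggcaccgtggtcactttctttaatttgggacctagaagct

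Small neutral amino acids and glutamine enter through Slc1a4, Slc1a5 and the Slc38 family. Slc1a5 encodes ASCT2, a sodium-dependent exchanger of glutamine, and its signal was 554.8 in ES, 2078 in B and 1460 in T cells. It was 3.75-fold higher in B cells and 2.63-fold higher in T cells, short of 4-fold, and its second probe set gave 1.79 and 1.20 on the log2 scale in that order. Slc1a4, which encodes the related ASCT1, was detected in ES cells alone, at 169.9 against 13.5 and 75.5. The high-affinity glutamate carriers of brain, Slc1a1, Slc1a2 and Slc1a6, were undetected on all arrays. Slc1a3, which is also a carrier of glutamate, was detected in T cells alone, at 212.5, and there by 1 of its 6 probe sets.

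System A carriers take up alanine and glutamine with sodium, and by their brightest probe sets 2 of the genes lay within 2-fold over the arrays, while the third was detected in ES cells alone. Slc38a1 (SNAT1) had signals of 2269 in ES, 3522 in B and 2995 in T cells, at most 1.55-fold apart. Slc38a2 (SNAT2), which is known to be induced by amino acid shortage, had 5173, 4289 and 5583, at most 1.30-fold apart. The second probe set of Slc38a2 did not match this, with 1095, 3552 and 3921, or 1.70 for B cells and 1.84 for T cells minus ES cells on the log2 scale. Slc38a4 (SNAT4), known from liver and placenta and as an imprinted gene, had a signal of 2360 in ES, 2.9 in B and 0.9 in T cells, at least 24.8-fold lower in each. The other probe set gave 1716, 2.0 and 1.1.

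Slc38a9 was the system A and N family member that was higher in lymphocytes by more than 4-fold. It encodes a lysosomal carrier that reports arginine to the mTORC1 kinase. Its signal was 90.4 in ES, 860.9 in B and 738.1 in T cells, at least 9.06-fold and at least 7.77-fold higher. All 7 of its probe sets placed both lymphocyte arrays above ES cells, but the log2 differences ranged from 1.04 to 3.18 for B cells and from 0.73 to 2.96 for T cells, as bounds in 5 of the 7. Slc38a6 had signals of 343.1, 648.8 and 749.2 and Slc38a10 of 1775, 2463 and 2605 in ES, B and T cells, while Slc38a5 was undetected.

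The window upstream of Slc38a9 (RefSeq, GRCm38.p6, chr13:112660516-112660765, plus strand) is shown as that of a transporter with the opposite direction. It holds none of the 3 motifs shown above, so no letter is in capitals. The 3 starts of Slc38a4, which was higher in ES cells, held none of them either, nor did the 2 starts of Slc43a2. Transporters undetected on all arrays, such as Slc1a6, also had windows with ACGTG and CACGTG. A link between these letters and the direction of difference was not tested. The GC box GGGCGG occurred on either strand in 32.7% of all windows and in 38 of 79 (48.1%) windows of the transporters, and is not marked.
Slc38a9: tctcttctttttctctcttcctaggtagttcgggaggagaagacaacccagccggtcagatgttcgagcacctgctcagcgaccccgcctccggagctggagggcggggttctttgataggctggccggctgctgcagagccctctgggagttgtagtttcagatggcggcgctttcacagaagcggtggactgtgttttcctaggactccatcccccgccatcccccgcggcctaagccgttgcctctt
Of the 13 transporters with a 4-fold difference in some comparison, 6 had an upstream window in the table.

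**Figure D2:**
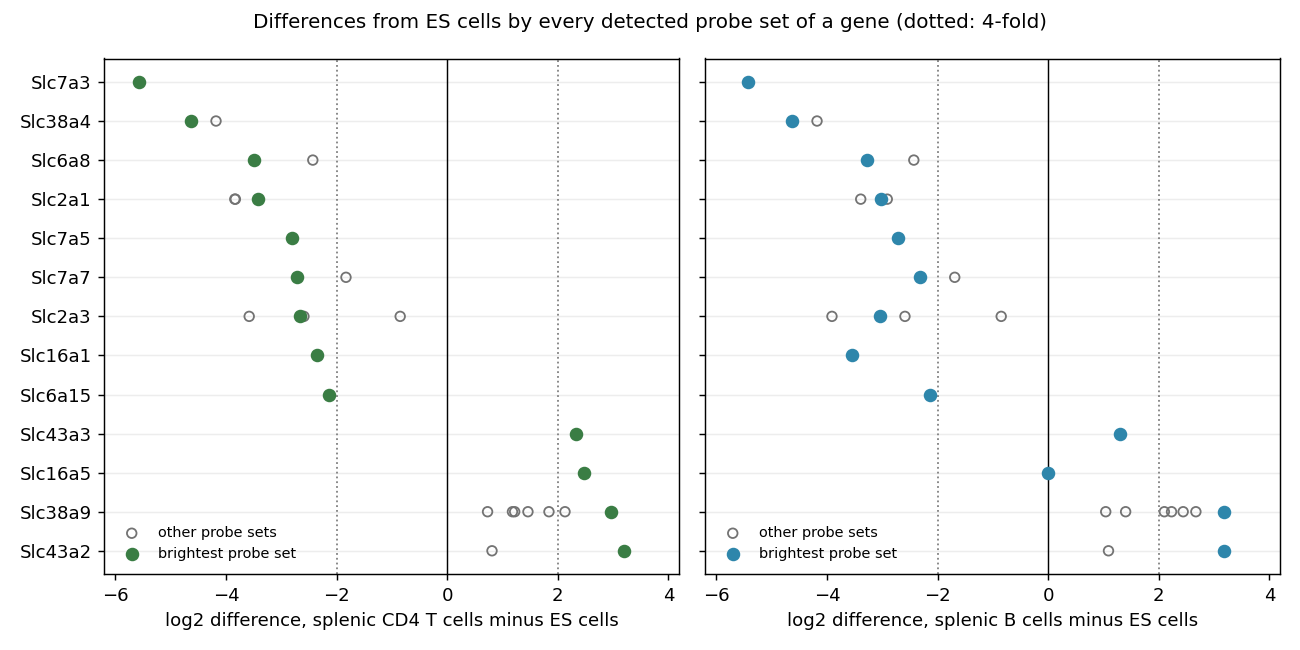
Log2 difference of T cells (left) and B cells (right) minus ES cells for the 13 transporters with a 4-fold difference in some comparison, with the brightest probe set filled and every other detected probe set open. All probe sets of Slc2a1, Slc38a4 and Slc6a8 lie beyond the dotted 4-fold line, while those of Slc2a3, Slc7a7, Slc43a2 and Slc38a9 fall on both sides of it.

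The Slc6 family carries neurotransmitters, amino acids, taurine and creatine. Of its 20 genes 10 were detected on at least 1 array, beside 12776 of all 18193 genes. The other 10 were undetected on all arrays. Among these were the serotonin and dopamine transporters Slc6a4 and Slc6a3, the former with a highest signal of 15.4. Slc6a8, the creatine transporter, had a signal of 1068 in ES, 109.7 in B and 94.0 in T cells, which is 9.73-fold above B cells and at least 11.2-fold above T cells. The second probe set gave 511.2, 73.2 and 10.3, at least 5.38-fold lower in both. Slc6a15, a carrier of branched-chain amino acids and proline known from brain, had 418.9 in ES, 24.6 in B and 1.7 in T cells, at least 4.41-fold lower in each. Slc6a6, the taurine transporter, lay within 2-fold, with 2023, 1786 and 2247, and so did Slc6a9, the glycine transporter GlyT1, with 264.8, 189.5 and 206.2. None of the 9 Slc6 genes measured in B cells and 7 in T cells against ES cells was at least 4-fold higher in lymphocytes. The share at least 4-fold higher among all measured genes was 9.85% in B cells and 10.8% in T cells. With so few Slc6 genes, finding none lies close to those shares.

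Slc43a3, a nucleobase carrier of the same family as the LAT3 and LAT4 genes, was undetected in ES cells at 91.4 and had signals of 233.2 in B cells and 473.7 in T cells. That is at least 2.45-fold and at least 4.99-fold higher. The 3 Slc43 genes thus had log2 differences of 2.32, 3.20 and -0.96 for T cells minus ES cells, for Slc43a3, Slc43a2 and Slc43a1.

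The 4 transporters counted as higher in lymphocytes than in ES cells were all undetected in ES cells, at 42.1 to 91.4, so their folds are bounds set by the detection level. With the second brightest probe set the counts fell to 2 for T cells and 1 for B cells. With a level of 244.5, the 65th percentile, the 4 transporters higher in T cells and the 2 higher in B cells became 0 and 0, whereas 8 of the 9 lower ones remained in each comparison, all but Slc6a15. The fibroblast markers summed to 94603 in ES cells, above both lymphocyte arrays like the 9 transporters, and the macrophage markers to 31657 and 76489 in B and T cells, above ES cells like the lymphocyte-high transporters. The part of either cell type was not tested.

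Between the lymphocyte populations the transporters lay about as close to each other as all genes did. Of 44 measured in T cells or B cells, 1 (2.27%) reached 4-fold on the T cell side, against 2.49% of all 11194 measured genes, and 0 reached it on the B cell side, against 1.85%. The median log2 difference was -0.12, beside -0.05 for all genes, and 36 (81.8%) lay within 2-fold, against 84.8%. The gene past 4-fold was Slc16a5, whose second probe set was undetected. At 2-fold, 8 of 44 (18.2%) differed, against 15.2% of all genes. These 8, named here after their values were seen, were Slc16a5, Slc16a1, Slc1a3 and Slc43a3 on the T cell side and Slc16a6, Slc16a7, Slc16a4 and Slc6a17 on the B cell side. The log2 differences of T cells minus B cells were 1.19 for Slc16a1 and -1.51 for Slc16a6, each resting on 1 detected probe set. For Slc16a1 the geometric mean of its probe sets, which includes the undetected one, gave 0.00. Both lymphocyte means fell below 95.0 and were raised to it, so this 0.00 is no second reading. The macrophage markers summed to 31657 in B cells against 76489 in T cells, and their part in these differences was not tested.

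**Figure D3:**
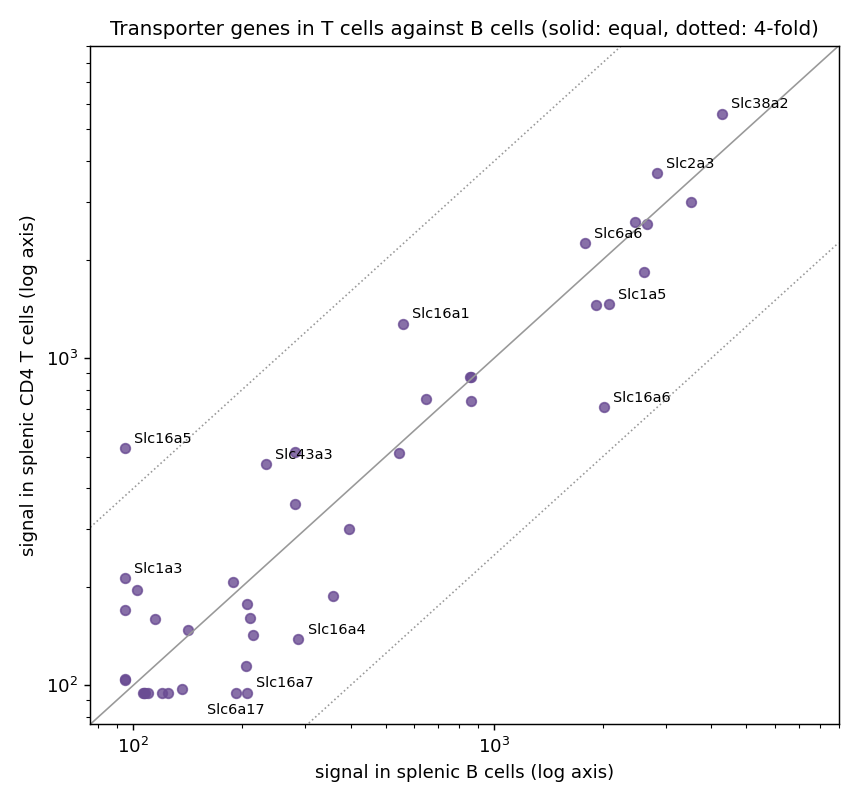
Signals of the 44 measured transporters in T cells against B cells (log axes), with values below 95.0 drawn at 95.0, the solid line for equal signals and dotted lines for 4-fold. The points follow the solid line, Slc16a5 lies beyond the upper dotted line, and Slc16a6 is the point nearest the lower one.

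Transporters depend on chaperones, on proteins that remove them from the membrane and on transcriptional control, and 2 lists of such genes were read on the same arrays. Of 12 genes for chaperones and trafficking 10 had a probe set and 9 were measured. In T cells against ES cells 1 of 9 was at least 4-fold higher and 2 lower, in B cells 1 higher and 5 lower, and in T cells against B cells 1 higher and 0 lower. Over all measured genes the shares were 10.8% higher and 10.2% lower, 9.85% and 10.3%, and 2.49% and 1.85%, in the same order, and the list is short. Bsg (basigin), the chaperone that takes MCT1 and MCT4 to the surface, had signals of 6639 in ES, 1483 in B and 1970 in T cells, 4.48-fold and 3.37-fold lower. Emb (embigin), a related chaperone of MCT2 and MCT1, had 4328 in ES, 522.6 in B and 6717 in T cells, so that B cells were 8.28-fold below ES cells and 12.9-fold below T cells. Its 3 probe sets ranged from 2.91 to 3.72 for T cells minus B cells, but from -3.08 to -0.07 for B cells minus ES cells. The dimmest of the 3, undetected in B cells, gave 2.91 and -0.07, both as bounds.

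Regulators of glucose carriers differed in both directions. Txnip, an arrestin that removes GLUT1 from the membrane, had signals of 1961 in ES, 7913 in B and 10142 in T cells, 4.04-fold and 5.17-fold higher in lymphocytes. The other probe set gave log2 differences of 2.39 and 2.62. Arrdc4, its paralog with a like effect on glucose uptake, went the opposite way, with 917.6 in ES cells against 87.7 and 144.9, at least 9.66-fold lower in B cells and 6.33-fold lower in T cells. Its second probe set gave -1.91, as a bound, and -1.21. Nedd4, a ubiquitin ligase, had 10553, 715.9 and 375.4, 14.7-fold and 28.1-fold lower. Nedd4l gave log2 differences of 0.58 for B cells and 0.16 for T cells by its brightest probe set. Others of its 6 probe sets reached 2.37, past 4-fold, for B cells and 1.65 for T cells. Sgk1, a kinase that raises the surface level of several carriers, had 10556, 1914 and 5050, 5.51-fold lower in B cells and 2.09-fold lower in T cells.

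The amino acid response is the set of genes that ATF4 switches on when amino acids run short, among them enzymes for making asparagine and serine. Of 19 listed genes 18 had a probe set. In T cells against ES cells 3 were at least 4-fold lower and in B cells 5, with 0 higher in both, and between T cells and B cells 0 of 17 reached 4-fold. Of all measured genes 10.2% were lower and 10.8% higher in T cells, and 10.3% lower and 9.85% higher in B cells, than in ES cells. The list's medians were -0.95 for T cells and -1.06 for B cells minus ES cells, beside -0.11 and -0.07 for all genes, and -0.15 for T cells minus B cells, beside -0.05. Asns, which encodes asparagine synthetase, had signals of 10385 in ES, 163.2 in B and 111.9 in T cells, 63.6-fold and 92.8-fold lower, and its second probe set gave a log2 difference of -6.48 in each, as a bound. Psat1, of serine synthesis, had 7875, 1050 and 943.3, 7.50-fold and 8.35-fold lower. Chac1, a glutathione-degrading enzyme, was at least 4.11-fold lower in both, at 390.7 against 79.0 and 36.5. By their brightest probe sets, Trib3, at 487.3 in ES cells against 13.6, and the mitochondrial folate gene Mthfd2, at 2560 against 556.6, were also past 4-fold in B cells. The other probe set of Trib3 passed 4-fold in T cells too, at -2.14, and that of Mthfd2 fell short in B cells, at -1.83. Atf4 itself had signals of 7287, 9111 and 6768, within 1.35-fold. Ddit3 went the other way, with 336.9 in ES, 842.3 in B and 749.1 in T cells. By its brightest probe set the log2 differences from ES cells were 1.32 for B cells and 1.15 for T cells. The other probe set gave 1.74 and 2.07, past 4-fold in T cells. Cebpb was also higher in lymphocytes, with 983.2 in ES, 1822 in B and 2959 in T cells.

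**Figure D4:**
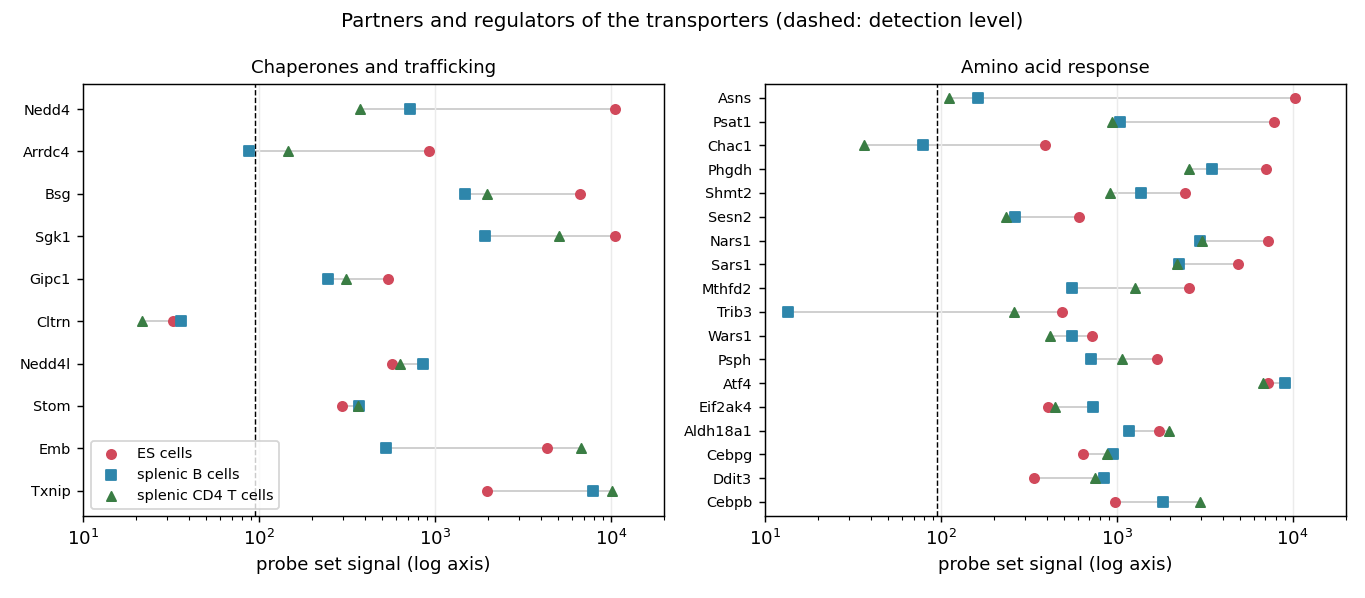
Probe set signals (log axis) of 10 chaperone and trafficking genes (left) and 18 amino acid response genes (right) in the 3 arrays, ordered by the log2 difference of T cells minus ES cells, with the dashed line at 95.0. Asns and Psat1 lie far to the right in ES cells while Atf4 does not, and Txnip lies to the right in both lymphocyte arrays.

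The 27 members undetected on all arrays included the kidney and neuronal carriers already named and Slc7a12, Slc7a13, Slc7a14 and Slc7a15, and their highest signal was 92.9. Outside the 13 members at 4-fold and the 14 detected others listed for description, 26 members were detected on at least 1 array. Their highest signal per gene lay between 99.0 and 2605. Their log2 differences lay between -1.38 and 1.93 for T cells minus ES cells, between -1.29 and 1.12 for B cells minus ES cells, and between -1.12 and 1.16 for T cells minus B cells.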

How the data were processed

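The authors deposited an intensity for each of 45037 probe sets, not log-transformed, in 3 samples with 1 array each. Affymetrix Expression Console is named in the submitters' processing notes, while version, summarization and background treatment were not given in the sources used here. Column means trimmed by 2% were 497.3, 497.8 and 497.7, so a general change in mRNA per cell cannot be seen. Probe sets were named through GEO's platform annotation. All 160 member probe sets had an Entrez ID found in the RefSeq table of GRCm38.p6, and 0 symbols changed; 44 members had 2 or more probe sets. Member symbols end in a number, or a number and a or b, so longer symbols built on them were left out. A probe set of several symbols that includes Slc1a2 was left out.

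Computed from these values (Python 3.11.15, pandas 2.3.3) were floored log2 differences and counts at 4-fold. The calling step was tested on simulated data, with large changes planted in bright genes and little noise. That checks the code and says nothing about the error of the calls made here. No test was possible with 1 array a group. The genes named are those at 4-fold in any comparison and a listed set of others. Further members, and Atf4, Ddit3, Cebpb and Nedd4l, were named after their values were seen. The members and lists were chosen with earlier results of these data known. Alternatives were 2 other scalings, 2 treatments of low values, 3 probe set rules and a 2-fold limit. No column lacked a sample.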

Additional observations from a re-analysis of the deposited data

How the results depend on the processing

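The count of transporters at least 4-fold lower in lymphocytes than in ES cells was 9 in each comparison and stayed between 6 and 12 under the 8 alternatives. It was 6 where every probe set had to pass, which lost Slc16a1, Slc2a3 and Slc7a7. Of these 6, Slc7a3, Slc7a5 and Slc6a15 have 1 probe set and pass by construction. The 12 came with the 2-fold limit, at 12 of 48 measured transporters for T cells and 12 of 49 for B cells. At that limit 24.7% and 24.6% of all measured genes were lower, so the transporter share was close to that of all genes. Higher at 2-fold were 9 of 48 and 9 of 49 transporters, against 22.7% and 21.1% of all genes. The counts higher in lymphocytes were less stable. Those higher in T cells than in ES cells (4) were 0 with a detection level set to the 65th percentile, 1 with the geometric mean of all probe sets, 2 with the second brightest probe set, 9 at 2-fold and 1 where every probe set had to pass. Those higher in B cells than in ES cells (2) were 0, 1, 1, 9 and 0 under the same alternatives, and 5 with 16 added in place of the floor. Transporters below both others in ES cells (2) numbered 0, 0, 1, 6 and 0. In T cells against B cells the 1 higher was 0, 0, 0, 4 and 0, and 2 with 16 added. The 0 lower became 1 with 16 added and 4 at 2-fold. Scaling to the 75th percentile moved the median of all genes from -0.11 to -0.41 for T cells and from -0.07 to -0.37 for B cells, minus ES cells, and under it 9 transporters were lower in each, 3 were higher in T cells (without Slc43a3) and 2 in B cells. Of 504 single differences recomputed, 54 could not move because the gene has 1 probe set and 36 were 0 both times. Of the other 414, 352 moved by less than the SD between probe sets and 62 by more, and 0 of those at 4-fold changed sign. The alternatives say nothing about the spread between cultures or animals, and signals near 95.0 set the limit for dim genes. No paired analysis was possible because each population had 1 array.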
